A study of Mus musculus with 6 samples.

Results

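Ribosomes are assembled in the nucleolus. RNA polymerase I copies the ribosomal DNA into a long precursor RNA, small nucleolar RNA-protein particles (snoRNPs) modify that precursor, and large sets of assembly factors cut, fold and pack it into the small and the large ribosomal subunit. The genes of this machinery are widely transcribed in growing cells, among them leukaemic T cells, and many are known targets of the transcription factor MYC.

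The 50 genes described here are a list of rRNA transcription, processing and ribosome assembly genes, chosen by name. They were found in the deposited count table of 40808 gene IDs through their Entrez IDs. All 50 members matched 1 ID each, and all 50 passed the low-count filter that left 14110 genes to test. By role, 3 are nucleolar chaperones, 5 serve transcription by RNA polymerase I, 3 belong to box C/D snoRNPs and 5 to box H/ACA snoRNPs, 16 act on the small subunit and 18 on the large subunit.

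The samples were spleens of mice that had been transplanted with bone marrow, with leukaemia cells named as the source of the RNA. The study compared 3 libraries without Dox (replicates 4, 5 and 6) with 3 libraries on Dox (replicates 10, 11 and 12). The treatment is written only as Dox. Its dose and duration, the gene it controls, and the genotype, strain, sex and age of donors and hosts are not given in the sources used here. Nothing says that the libraries of a group came from separate mice, so p-values measure the spread between these libraries, which may be technical.

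The libraries held 5541486 to 7729988 counts without Dox and 6498193 to 8725767 with Dox. A count of 3 corresponded to 0.309 to 0.608 normalized CPM (CPM, the share of a library's counts on a fixed scale, adjusted by TMM for differences in composition), a limit that covers counting error only. The labelled cell type was checked against its markers. Of 15 T cell markers 13 were lower with Dox, and they summed to 3164 to 3451 CPM in libraries without Dox and to 302 to 385 CPM in those with Dox. All 15 B cell markers were higher, with a sum of 45.2 to 54.4 CPM without Dox, where Cd72 had 0 counts, and 2540.3 to 2705 CPM with Dox. Of 15 tested myeloid markers 9 were higher and 4 lower (sums 469 to 548 and 2397 to 2438 CPM, with Ly6g at 0 counts without Dox). Of 15 erythroid markers 8 were higher and 2 lower (sums 94594 to 104649 and 134006 to 143870 CPM). Xist had 193 to 324 counts without Dox and 3347 to 5669 with Dox, while 4 Y-linked genes together had 545 to 801 counts without Dox and 0 in each library with Dox. Each library without Dox thus held both Xist and Y-linked counts, so it cannot be assigned to a single sex. Treatment and these sex-linked differences cannot be told apart, and whether they came from donor or host cells was not tested. In bulk RNA, fewer cells of a type and less RNA per cell cannot be told apart either, and the part of these marker shifts in the results below was not tested.

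Promoter sequences of the members are given first, as a description only. RefSeq windows of 300 bases (250 before and 50 after the start site, GRCm38.p6) were at hand for 44 of the 50 members; Npm1, Tcof1, Fbl, Rrp12, Bop1 and Rrs1 were not matched. CACGTG, the E-box that MYC binds together with MAX, stood in 9 of the 44 (20.5%), against 11.3% of 10681 tested genes and 8.09% of all 27025 genes with a window. CCGGAAG, a core motif of the ETS family of transcription factors, stood in 16 of 44 (36.4%), against 19.1% of tested genes and 9.93% of all genes. GGGCGG, the GC box, stood in 32 of 44 (72.7%; 63.6% of tested genes and 38.2% of all genes). TATAAA, the TATA box, stood in 3 of 44 (6.82%; 9.88% and 15.7%). Both strands were searched, and 1 match in the members' windows overlapped a match of another of these motifs.

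Calls were set beside the E-box matches. Of the 28 members with a window that were lower with Dox, 3 held CACGTG (Rrn3, Imp4 and Utp4), as against 6 of the 16 that did not pass the test (Nop2, Ltv1, Utp20, Pes1, Nle1 and Wdr43). That difference was not tested. CCGGAAG stood in 11 of the 28 and in 5 of the 16. A match is a run of letters and not a measured binding site, and windows of this size leave out introns and distal sequence.

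The upstream bases of 4 members are shown to set these cases side by side, as far as they lie outside GENCODE exons and outside the member's own RefSeq gene. For Gar1 and Emg1, whose RefSeq gene begins before the window's start site, they end before that gene. Rrn3 has CACGTG at both -215 and -48 (first base, with -1 the base before the start site) and was lower with Dox. Nop2 has CACGTG at -60 and CCGGAAG at -38 and did not pass. Gar1 and Emg1 have CCGGAAG or its reverse complement without CACGTG and were lower. Capitals mark matches to any of the 4 motifs on either strand. The last capitals of Rrn3 begin a CTTCCGG that runs across the start site.
Rrn3, chr16:13780449-13780698, plus strand: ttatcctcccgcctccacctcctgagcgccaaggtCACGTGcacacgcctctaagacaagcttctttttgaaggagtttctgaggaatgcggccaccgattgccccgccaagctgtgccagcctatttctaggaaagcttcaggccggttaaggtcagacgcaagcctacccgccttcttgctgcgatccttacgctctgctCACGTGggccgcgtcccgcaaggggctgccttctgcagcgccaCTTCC
Nop2, chr6:125131633-125131882, plus strand: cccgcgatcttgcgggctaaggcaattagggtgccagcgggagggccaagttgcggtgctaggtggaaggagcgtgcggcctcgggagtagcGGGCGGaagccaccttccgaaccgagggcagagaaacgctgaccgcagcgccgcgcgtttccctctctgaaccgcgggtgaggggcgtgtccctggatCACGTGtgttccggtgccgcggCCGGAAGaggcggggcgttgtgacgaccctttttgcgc
Gar1, chr3:129831408-129831646, minus strand: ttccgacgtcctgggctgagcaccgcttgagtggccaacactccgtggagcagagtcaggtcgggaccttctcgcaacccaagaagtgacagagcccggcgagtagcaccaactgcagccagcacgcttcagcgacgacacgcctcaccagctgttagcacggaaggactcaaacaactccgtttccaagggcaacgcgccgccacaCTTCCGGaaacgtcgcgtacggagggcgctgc
Emg1, chr6:124712187-124712335, minus strand: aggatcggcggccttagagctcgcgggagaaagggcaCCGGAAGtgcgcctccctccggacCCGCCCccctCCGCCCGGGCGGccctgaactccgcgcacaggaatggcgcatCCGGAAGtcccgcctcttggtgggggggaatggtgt

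Most members were lower with Dox. Of the 50, 33 passed an adjusted p-value of 0.05 as lower and 0 as higher (quasi-likelihood test of edgeR, Benjamini-Hochberg adjustment over all 14110 genes). Of all tested genes, 22.1% passed as lower and 23.6% as higher. The median log2 fold change of the members, Dox minus no Dox, was -1.28 (quartiles -1.86 and -0.58), against 0.07 over all tested genes (quartiles -0.95 and 1.16). In 39 members every Dox library lay below every library without Dox, a pattern held by 29.6% of tested genes; in 0 members did every Dox library lie above, against 30.0% of tested genes. By fitted value 31 members were more than 1 log2 unit lower and 10 more than 2 units lower. Counts of alternatives given for single genes cover up to 16 other fits at the same threshold; the stricter threshold of 0.01 is treated apart. The 17 that did not pass were Polr1a, Polr1b, Ddx21, Utp20, Wdr43, Heatr1, Nop14, Bysl, Ltv1, Rrp12, Pes1, Rrp1b, Mrto4, Nop2, Noc2l, Noc3l and Nle1. Scaling by library size only gave 29 members lower and 4 higher (Polr1a, Pes1, Mrto4 and Noc2l); it moved the median of all tested genes to 0.38 and that of the members to -0.97, with 2359 in the count of all genes lower with Dox and 4257 in that of all genes higher with Dox, as against 3114 and 3324 under TMM.

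**Figure D1:**
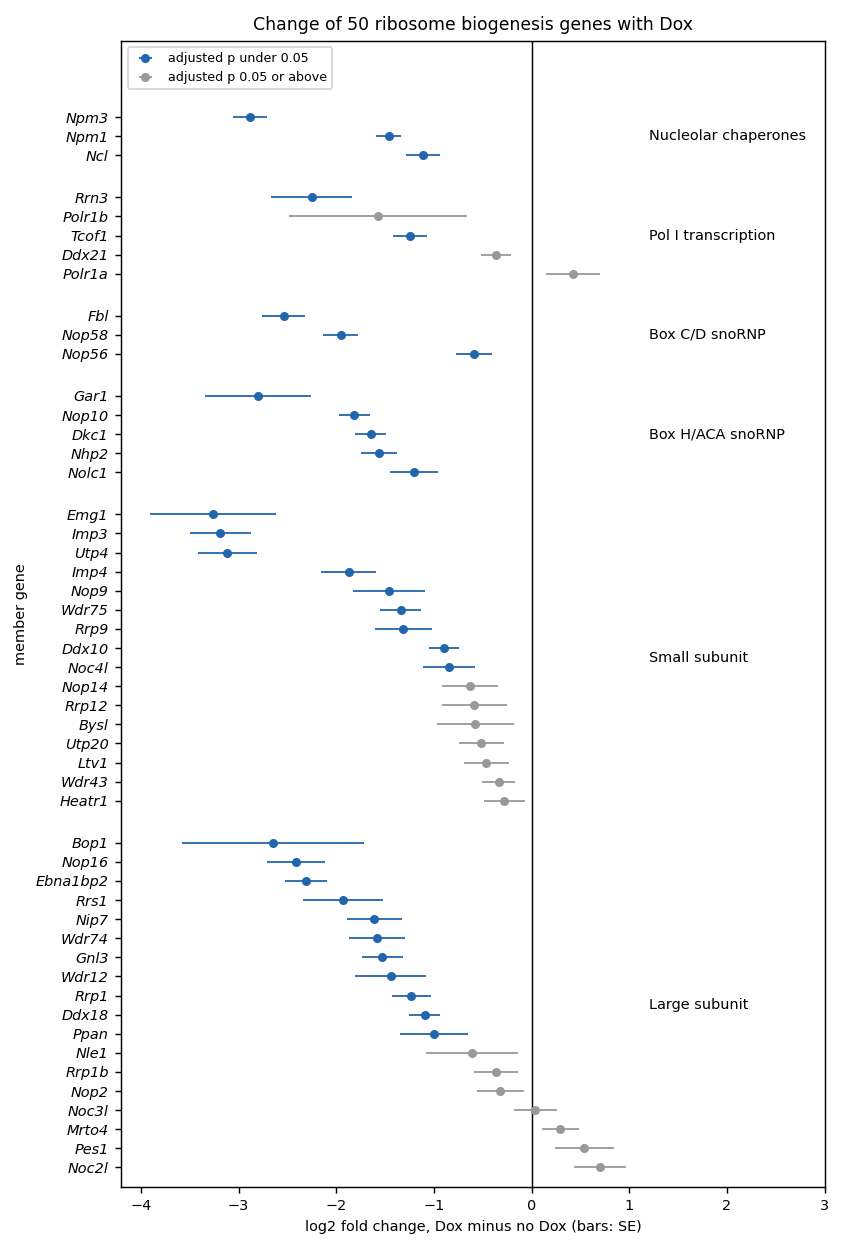
Fitted log2 fold change (x axis, Dox minus no Dox, bars are SE, 3 libraries per group) of the 50 members (y axis), grouped by role. The 33 blue points passed the adjusted threshold and all lie below 0; 5 of the 17 grey points lie above 0.

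Together the members took 1.14%, 1.12% and 1.15% of all counts in the libraries without Dox, and 0.568%, 0.574% and 0.703% in those with Dox. The share in every Dox library was below that in every library without Dox. After TMM scaling the sums were 12686 ± 373 CPM (SD, n = 3) without Dox and 5579 ± 853 CPM (SD, n = 3) with Dox, a ratio of 2.27. Dox replicate 12 was the highest of the Dox libraries, at 6561 CPM against 5023 and 5153 CPM. It was the highest Dox library in 26 of the 50 members. Without it, 38 members were lower. Dox libraries also differed more among themselves: the median coefficient of variation over members was 9.95% without Dox and 22.7% with Dox, next to 18.8% and 33.2% over all tested genes, and it was larger with Dox in 41 of 50 members.

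The members' sum was set against other genes of the same library, a ratio that no scaling factor enters. Per count of 17 proliferation markers the libraries without Dox had 2.41, 2.32 and 2.11 counts of members, and the Dox libraries 1.44, 1.46 and 1.61. This contrast rested on Mki67 and Top2a, the most abundant of the markers, which did not pass the test. Without them, a choice made after the data were seen, the ratios were 4.46, 4.18 and 3.56 in libraries without Dox, and 3.44, 3.50 and 4.73 in Dox libraries, so that the groups overlapped. Of these markers 13 of 17 were themselves lower (summed level 5411 to 5881 CPM without Dox and 3479.6 to 4077 CPM with Dox). Per count of the 15 T cell markers the sum stood at 3.80, 3.91 and 3.92 without Dox, and at 13.1, 14.2 and 21.7 in the Dox libraries: T cell markers were lower by more than the members were. Myc, the transcription factor gene named above, had 138, 119.6 and 110.4 CPM without Dox and 8.44, 9.16 and 7.12 CPM with Dox (-3.89 ± 0.21 on the log2 scale, SE, adjusted p = 1.87e-06).

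**Figure D2:**
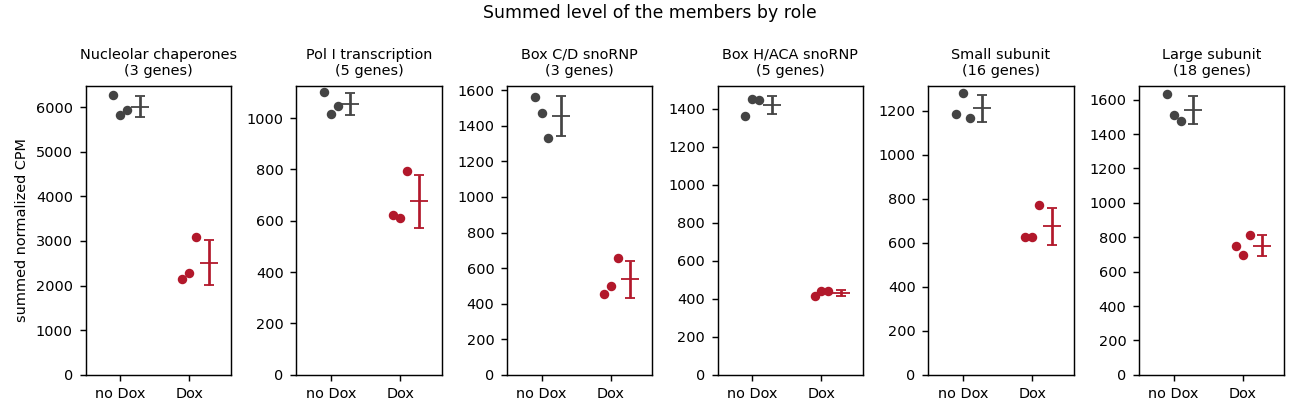
Summed normalized CPM (y axis, starting at 0) of the members of each role in each library; points are libraries, and the bar beside them is the mean ± SD (n = 3). In all 6 roles the 3 Dox libraries lie below the 3 without Dox, with the highest ratio of means for box H/ACA genes (3.30) and the lowest for genes of RNA polymerase I (1.56).

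All 3 nucleolar chaperones fell with Dox. Ncl encodes nucleolin, an abundant RNA-binding protein of the nucleolus (Entrez 17975, chr1:86344719-86359455, GRCm38.p6). It was the highest member in both groups, at 4431, 4009 and 3991 CPM without Dox and 1569.7, 1714 and 2459 CPM with Dox. All Dox libraries were below all others, with replicate 12 the highest of them, and the log2 fold change was -1.11 ± 0.17 (SE, adjusted p = 0.00061). Ncl ranked 18th of the tested genes in each group, and it made up 32.0% to 33.8% of the members' sum without Dox and 31.3% to 37.5% with Dox. Because these libraries count transcript ends, levels of genes were compared without division by length.

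Npm1 encodes nucleophosmin, a histone chaperone that shuttles ribosomal particles, and was the second highest member (chr11:33152498-33164142). It had 1459, 1487 and 1591 CPM without Dox and 543, 526 and 576 CPM with Dox, with little spread within either group (log2 fold change -1.46 ± 0.13 (SE), adjusted p = 1.85e-05). Npm3, a smaller relative of Npm1, had 377, 321 and 351 CPM without Dox and 44.0, 44.1 and 54.3 CPM with Dox. Its log2 fold change was -2.88 ± 0.17 (SE, adjusted p = 2.62e-06), the lowest adjusted p of the 50. Npm3 has a listed pseudogene, Npm3-ps1, with 927 to 1229 counts without Dox and 196 to 436 with Dox, so reads of the pair may have been split and the level of Npm3 is uncertain.

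Of the 5 genes of RNA polymerase I transcription, 2 fell and 3 did not pass. Rrn3 encodes the initiation factor that brings the polymerase to the ribosomal promoter (chr16:13780699-13814841). It had 33.4, 27.6 and 34.1 CPM without Dox and 4.35, 4.32 and 11.3 CPM with Dox, and the groups were well separated (log2 fold change -2.25 ± 0.41 (SE), adjusted p = 0.00156). Tcof1, which encodes treacle, a nucleolar cofactor of the polymerase, had 399, 381 and 366 CPM without Dox and 174, 128 and 183 CPM with Dox (log2 fold change -1.24 ± 0.17 (SE), adjusted p = 0.000312). Ddx21, an RNA helicase of the nucleolus, had 603, 557 and 595 CPM without Dox and 415, 414 and 534 CPM with Dox. Its groups did not overlap, and the adjusted p was 0.0782. It passed as lower in 6 of 16 alternatives: DESeq2 (adjusted p = 0.0406), limma-voom (0.0457), limma-voom with group weights (0.0319), no low-count filter (0.0440), removal of the length trend (0.00627) and the fit without Dox replicate 12 (0.00388).

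Polr1a and Polr1b, whose products form the catalytic centre, did not pass. Polr1b, the second-largest subunit, had 27.5, 18.8 and 17.1 CPM without Dox, and 0, 13.6 and 7.51 CPM with Dox (0, 132 and 57 counts). Its log2 fold change was -1.57 ± 0.91 (SE, adjusted p = 0.187), and it passed as lower in 2 of 15 alternatives, without the low-count filter (-1.74, adjusted p = 0.000209) and under limma-voom with group weights (-3.14, adjusted p = 0.0449). Polr1a, the largest subunit, had 37.8, 30.0 and 35.4 CPM without Dox and 29.1, 51.4 and 58.2 CPM with Dox, and these groups overlapped (log2 fold change 0.43 ± 0.28 (SE), adjusted p = 0.236). Polr1a passed as higher without Dox replicate 10 (0.64, adjusted p = 0.0431) and with library size only (0.73), whereas its value was -0.32 once the length trend was removed. Smaller subunits of the polymerase, which are not members and were named after their values were seen, were mostly lower: Polr1c (-2.61, adjusted p = 0.00344), Polr1d (-1.74, adjusted p = 0.00108), Znrd1 (-2.66, adjusted p = 0.00034), Cd3eap (-0.90, adjusted p = 0.00973) and Twistnb (-1.04, adjusted p = 0.0011) fell, and Polr1e (-0.78, adjusted p = 0.171) did not pass. Once the length trend was removed, Polr1c (-1.79), Polr1d (-0.87) and Znrd1 (-1.42) still passed, at adjusted p-values from 0.0114 to 0.0239. Polr1c and Polr1d also serve RNA polymerase III. Summed, the 5 members of this role stood at 1054 ± 43.3 CPM without Dox and at 676 ± 103 CPM with Dox (n = 3 each, SD), the smallest ratio of the 6 roles, 1.56.

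All 3 box C/D genes fell. These snoRNPs place methyl groups on rRNA: Fbl encodes fibrillarin, the methyltransferase, and Nop56 and Nop58 encode its paired scaffold proteins. Fbl had 139, 116 and 114 CPM without Dox and 26.8, 18.01 and 18.7 CPM with Dox (log2 fold change -2.54 ± 0.22 (SE), adjusted p = 1.71e-05). Nop58 had 991, 911 and 830.3 CPM without Dox and 190.0, 234 and 282 CPM with Dox (log2 fold change -1.95 ± 0.18 (SE), adjusted p = 2.21e-05). Nop56 had 430.2, 445 and 390.4 CPM without Dox and 238, 247 and 355 CPM with Dox, all below the other group but less far apart (log2 fold change -0.59 ± 0.18 (SE), adjusted p = 0.0242). The Nop56 call was lost with scaling by library size only (-0.28, adjusted p = 0.200), with the length trend removed (-0.16, adjusted p = 0.527), and also when either replicate 4 or 5 without Dox, or replicate 10 or 11 with Dox, was left out (adjusted p = 0.0610 to 0.0685).

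Counts of Nop58 exceeded those of Nop56 without Dox and were below them with Dox. Within each library, Nop58 had 2.30, 2.05 and 2.13 counts per count of Nop56 without Dox and 0.798, 0.946 and 0.794 with Dox. Fbl had 0.323, 0.262 and 0.291 counts per count of Nop56 without Dox, and 0.113, 0.0729 and 0.0527 with Dox. Neither ratio overlapped between groups. Such ratios were computed for 8 pairs of members picked after their values were seen. In 6 pairs the ranges of the groups were apart, and each reached the lowest p possible with 3 against 3 (two-sided exact permutation test, p = 0.1, or 0.133 adjusted over the 8 pairs), so no pair could pass a threshold of 0.05. The other 2 pairs, Nop10/Dkc1 and Imp3/Imp4, overlapped.

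**Figure D3:**
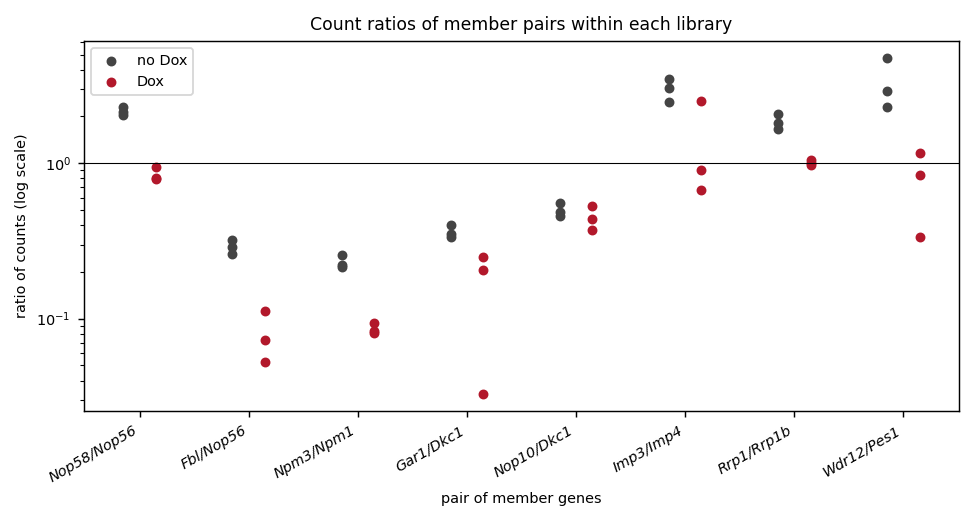
Ratio of the counts of paired members within each library (y axis, log scale; grey without Dox, red with Dox, 3 libraries each). Nop58/Nop56 and Rrp1/Rrp1b lie between 1.66 and 2.30 without Dox and between 0.794 and 1.05 with Dox, while Nop10/Dkc1 overlaps between the groups.

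All 5 box H/ACA genes fell, and the ratio of their summed levels was the highest of the 6 roles: 1420.2 ± 48.4 CPM without Dox and, with it, 430.1 ± 14.97 CPM (n = 3 each, SD), a ratio of 3.30. These particles convert uridine to pseudouridine in rRNA, and the same proteins stabilise telomerase RNA. Dkc1, the X-linked gene of the catalytic subunit dyskerin (chrX:75095854-75109776), had 515, 629 and 632 CPM without Dox and 169, 202 and 196 CPM with Dox (log2 fold change -1.65 ± 0.16 (SE), adjusted p = 3.14e-05). It was the only member on the X chromosome, and it was lower in the group with the higher Xist counts. Nop10, the smallest core protein, had 287, 289 and 308 CPM without Dox and 89.8, 88.5 and 73.1 CPM with Dox (log2 fold change -1.81 ± 0.16 (SE), adjusted p = 1.85e-05).

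The ratio of Nop10 to Dkc1 overlapped between the groups. Nop10 had 0.557, 0.460 and 0.488 counts per count of Dkc1 without Dox and 0.532, 0.437 and 0.372 with Dox (p = 0.4, two-sided exact permutation test). The log2 difference of that ratio was -0.18. Gar1, a core protein that joins the particle late, had 208, 222 and 212 CPM without Dox and 34.7, 50.5 and 6.46 CPM with Dox. All Dox libraries were low, and replicate 12 was lowest at 49 counts (log2 fold change -2.80 ± 0.54 (SE), adjusted p = 0.0021). With the length trend removed, the log2 fold changes of the short Nop10 and Nhp2 were -0.86 and -0.55, both still past the threshold. Nhp2, the remaining core protein, had 124 ± 5.89 CPM without Dox and 42.1 ± 5.75 CPM with Dox (n = 3 each, SD; adjusted p = 9.41e-05). Nolc1, a chaperone of snoRNPs, had 194 ± 31.5 and 84.3 ± 28.2 CPM (n = 3 each, SD; adjusted p = 0.00287).

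**Figure D4:**
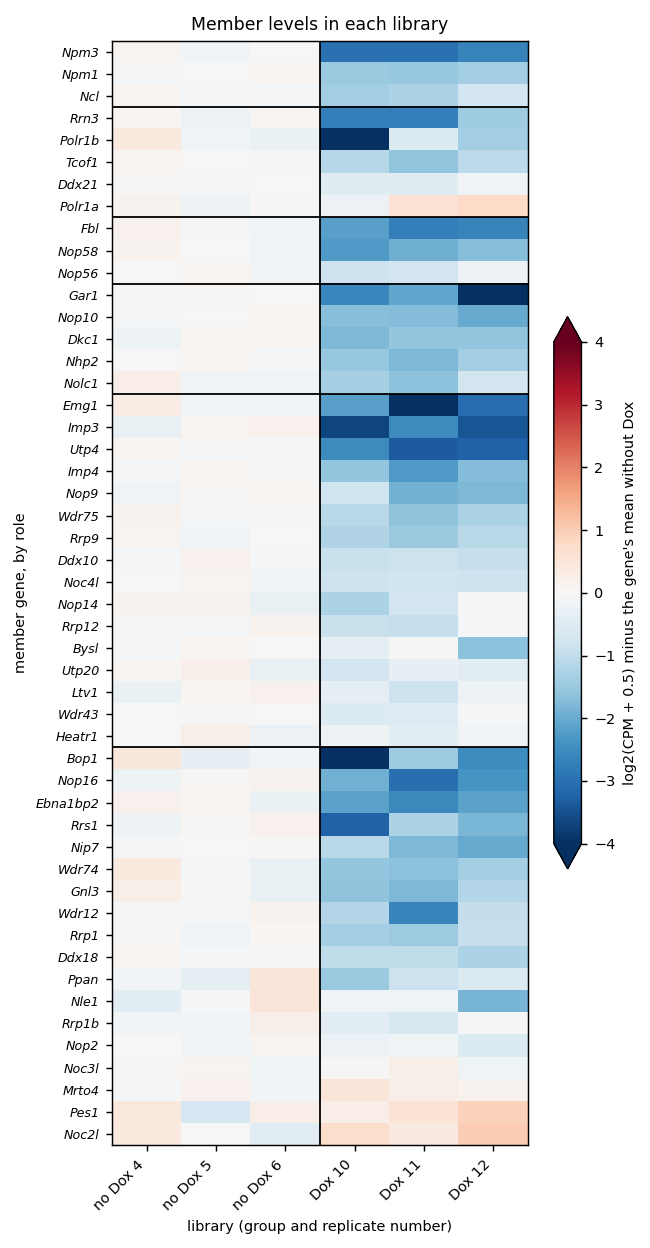
Level of each member (rows, by role) in each library (columns), as log2(CPM + 0.5) minus the mean without Dox; blue is lower, red is higher, and values beyond 4 take the end colour. The columns without Dox are near 0 for most genes; single dark cells in the Dox columns mark Polr1b and Bop1 at 0 counts in replicate 10, Gar1 in replicate 12 and Emg1 in replicate 11.

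Of the 16 small-subunit genes, 9 fell and 7 did not pass, and all 16 fitted values were below 0 (median -0.87). The largest falls were in Emg1, Imp3 and Utp4. Emg1 encodes an rRNA methyltransferase. It had 21.8, 16.2 and 15.6 CPM without Dox and 3.54, 0.412 and 1.71 CPM with Dox, the last from 26, 4 and 13 counts (log2 fold change -3.26 ± 0.64 (SE), adjusted p = 0.00241). Imp3, a partner of the snoRNA that guides the first cuts, had 93.6, 124 and 130.4 CPM without Dox and 8.57, 19.0 and 10.3 CPM with Dox. It was low in all 3 Dox libraries (log2 fold change -3.19 ± 0.31 (SE), adjusted p = 3.53e-05).

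Utp4, an early component of the small-subunit processome, fell from 47.4 ± 1.99 to 5.48 ± 1.86 CPM (n = 3 each, SD; log2 fold change -3.11, adjusted p = 3.25e-05). Its partner Wdr75 fell by 1.34 on the log2 scale (adjusted p = 0.000571), and Imp4, the companion of Imp3, by 1.87 (adjusted p = 0.000442). Rrp9, a snoRNA-binding protein, and Nop9, an RNA-binding factor, were lower as well (log2 fold changes -1.31 and -1.46), and Noc4l fell by 0.84 (adjusted p = 0.0263). The call of Noc4l was lost in 5 of 16 alternatives: library size only (adjusted p = 0.134), at least 10 counts per library (0.0501), removal of the length trend (0.129), and leaving out replicate 4 (0.0827) or 5 (0.0985) of the group without Dox. That of Rrp9 was lost once the length trend was removed (-0.69, adjusted p = 0.0817). Ddx10, a helicase, was among the most abundant of the role: it had 221, 261 and 219 CPM without Dox and 126, 127 and 123 CPM with Dox, close together in both groups (log2 fold change -0.90 ± 0.15 (SE), adjusted p = 0.00105).

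The small-subunit genes that did not pass included the large scaffold proteins Heatr1 and Utp20 as well as late factors. Wdr43, the most abundant gene of this role in both groups, had 318, 331 and 316 CPM without Dox and 222, 227 and 314 CPM with Dox. Replicate 12 came close to the group without Dox, and the others were lower (log2 fold change -0.34 ± 0.17 (SE), adjusted p = 0.138). Without replicate 12 its adjusted p was 0.00392. Heatr1 had 49.8 ± 8.36 and 41.1 ± 4.72 CPM and Utp20 44.7 ± 7.94 and 31.2 ± 4.61 CPM (n = 3 each, SD; adjusted p = 0.313 and 0.0964). Once the length trend was removed both passed as lower, Heatr1 at -0.79 (adjusted p = 0.0113) and Utp20 at -1.21 (adjusted p = 0.00212). Log2 fold changes of Nop14, Rrp12, Bysl and Ltv1 were -0.63, -0.59, -0.58 and -0.46, with adjusted p-values from 0.0988 to 0.262. Without Dox replicate 12, Nop14 (-1.02), Rrp12 (-0.97) and Ltv1 (-0.63) passed as lower; Nop14 also passed without the low-count filter and under limma-voom with group weights. Rrp12, Bysl and Ltv1 act late, on small subunits that leave the nucleus.

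Of the 18 large-subunit genes, 11 fell and 7 did not pass (median log2 fold change -1.16). Gnl3, which encodes nucleostemin, a nucleolar GTPase, was the most abundant of them without Dox: 419.6, 368 and 289 CPM without Dox and 116, 102 and 156 CPM with Dox (log2 fold change -1.53 ± 0.21 (SE), adjusted p = 0.000292). Ddx18, a helicase, had 309, 277 and 270.4 CPM without Dox and 141, 142 and 118 CPM with Dox (log2 fold change -1.10 ± 0.16 (SE), adjusted p = 0.000354). Both were lower in all 3 Dox libraries. Nop16, an early large-subunit factor, had 65.4, 78.2 and 82.4 CPM without Dox and 19.6, 8.85 and 14.1 CPM with Dox (log2 fold change -2.41 ± 0.30 (SE), adjusted p = 0.000135). Ebna1bp2 and Rrs1, assembly factors, were also lower (log2 fold changes -2.31 and -1.93), as were Nip7 (-1.61), Wdr74 (-1.58), Rrp1 (-1.23) and Ppan (-1.001). The call of Ppan was lost in 8 of 16 alternatives, and that of Wdr74 with the length trend removed (log2 fold change -0.70; adjusted p = 0.0796 by edgeR).

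The PeBoW complex, which processes the large-subunit precursor, had 2 of its 3 genes, Bop1 and Wdr12, lower with Dox. Bop1 had 16.9, 9.52 and 11.2 CPM without Dox and 0, 4.12 and 1.71 CPM with Dox (0, 40 and 13 counts; log2 fold change -2.65 ± 0.93 (SE), adjusted p = 0.0403). The call was lost in 6 of 15 alternatives, including each fit that left out a library without Dox (adjusted p up to 0.152). Wdr12 fell by 1.44 (adjusted p = 0.00900), with Dox replicate 11 lowest at 17.9 CPM. Pes1, the remaining gene of the complex, had 48.3, 22.7 and 43.2 CPM without Dox and 43.5, 53.6 and 69.3 CPM with Dox. These groups overlapped (log2 fold change 0.54 ± 0.30 (SE), adjusted p = 0.171, and higher at adjusted p = 0.0386 with library size only). Wdr12 had 2.30, 4.79 and 2.90 counts per count of Pes1 without Dox, and 1.17, 0.334 and 0.844 with Dox, without overlap.

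Of the paralogs Rrp1 and Rrp1b, the former fell. The latter did not pass, except without Dox replicate 12 (-0.57, adjusted p = 0.0358) and after removal of the length trend (-0.64, adjusted p = 0.0349). Rrp1 had 105 ± 8.09 CPM without Dox and 44.9 ± 9.27 CPM with Dox (adjusted p = 0.000776), and Rrp1b 57.3 ± 8.09 and 44.5 ± 9.75 CPM (n = 3 each, SD; adjusted p = 0.209). Rrp1 had 2.08, 1.82 and 1.66 counts per count of Rrp1b without Dox and 0.980, 1.05 and 1.002 with Dox. The values of the other large-subunit genes that did not pass lay on both sides of 0. Noc2l had 43.9, 34.2 and 25.1 CPM without Dox and 55.3, 43.5 and 68.8 CPM with Dox, with overlap (log2 fold change 0.70 ± 0.27 (SE), adjusted p = 0.0551). It passed as higher in 6 of 16 alternatives, among them upper-quartile scaling (adjusted p = 0.0338) and scaling by library size only. Log2 fold changes were 0.29 for Mrto4, 0.04 for Noc3l, -0.32 for Nop2 and -0.61 for Nle1. Mrto4 passed as higher with library size only (0.61, adjusted p = 0.0256) and after removal of the length trend (1.16, adjusted p = 0.000684). Mrto4 has the listed pseudogenes Mrto4-ps1, with 10 to 20 counts without Dox and 0 to 2 with Dox, and Mrto4-ps2, with 32 to 51 and 139 to 179 counts, so its own level is uncertain.

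Longer transcripts tended to have higher, that is less negative, log2 fold changes. Across the 50 members, the log2 fold change and the log2 length of the longest annotated coding transcript had Pearson's r = 0.41 and Spearman's rho = 0.41, a description across genes that share the same 6 libraries; across 11992 tested genes with a length, r was 0.24 and rho 0.30. Of the 17 shortest members (888 to 1984 bases) 15 were lower, where 40.7% of tested genes in that length range were. In the middle range (2048 to 3450 bases) 10 of 16 members were lower, where 22.5% of tested genes were, and in the longest (3582 to 10012 bases) 8 of 17, where 15% were. In each range the median log2 fold change of the members, -1.56, -0.996 and -1.11, was below that of all tested genes, -0.76, -0.11 and 0.36. After removal of the length trend from each library, an alternative added after the data were seen, the values of short genes moved upward and those of long genes downward. Falls of short genes thus became smaller and falls of long genes larger. The short Mrto4 moved away from 0 (0.29 to 1.16), and the long Polr1a crossed it (0.43 to -0.32). Among the 33 lower members, 11 of 888 to 2075 bases became smaller by more than 1.5 times: Npm3 (-1.75), Imp3 (-2.09), Nhp2 (-0.55, adjusted p = 0.0338), Nop10 (-0.86), Fbl (-1.65), Wdr74, Rrp9, Npm1 (-0.88), Ppan, Nop56 and Noc4l. The long Ncl (-1.77) and Wdr12 (-2.27) became larger by more than 1.5 times. In this fit 32 members were lower and 2 higher (Mrto4 and Noc2l), with a median of -0.88.

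**Figure D5:**
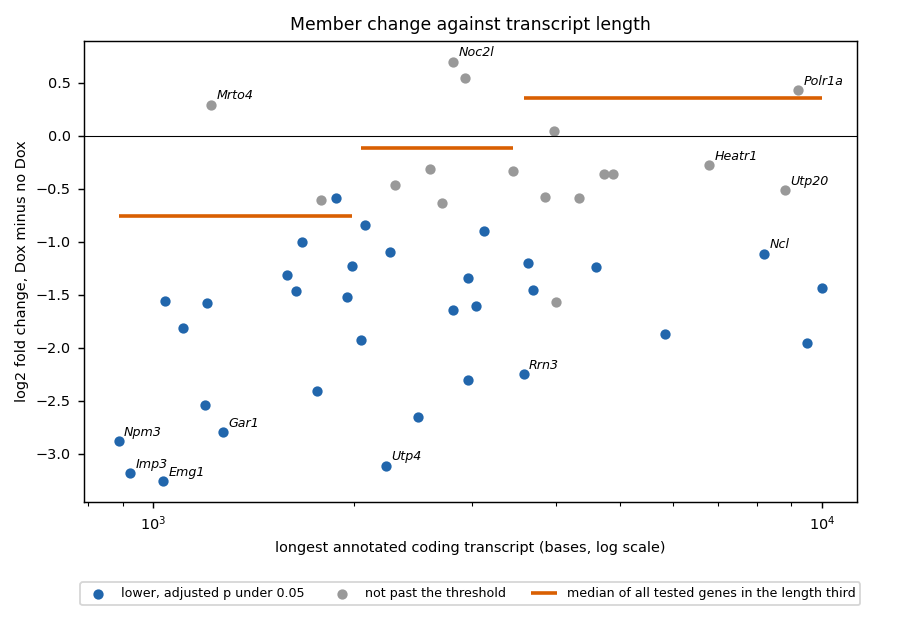
Log2 fold change (y axis, Dox minus no Dox) against the length of the longest annotated coding transcript (x axis, log scale) for the 50 members; orange lines are medians of all tested genes over each of 3 ranges of the members' lengths. Npm3, Imp3, Emg1 and Gar1 are short and far below 0, and Polr1a and Heatr1 are long and nearer 0, but long genes such as Nop58 (9507 bases, -1.95) also lie far below 0 and the short Mrto4 (1221 bases, 0.29) lies above it.

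Position in the genome was compared as well. The members lie on 19 chromosomes, with 7 on chromosome 1. A protein-coding neighbour whose start lies within 1000 bases, head to head on the other strand, was annotated for 13 of 50 members (26.0%) and for 10.1% of 11678 tested protein-coding genes. Of the 12 such neighbours that were tested, 5 were lower, 2 higher and the rest did not pass, next to 22.1% lower and 23.6% higher over all tested genes; nothing is read from so few. Emg1 and its neighbour Phb2, a prohibitin of the mitochondrial inner membrane, were both lower (log2 fold changes -3.26 and -2.11), as were Nop16 and Higd2a (-2.41 and -1.43). Nip7 and its neighbour Cog8, a Golgi protein gene, went opposite ways (-1.61 and 1.04, adjusted p = 0.0219 for Cog8). Polr1a, with no call, faced Ptcd3, which fell by 1.73 (adjusted p = 0.000392).

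Exons of 16 members overlap a gene on the opposite strand, and whether reads were counted by strand is not given in the sources used here. In 8 of these the partner had more than 10 counts in some library. Idh3b, which overlaps Nop56, fell by 2.64 on the log2 scale with 325 to 411 counts without Dox. Pbrm1, which overlaps Gnl3, had 1908 to 2665 counts without Dox and fell by 0.49. Samd11, which overlaps Noc2l, was higher by 2.23. Reads of these pairs cannot be told apart if strand was ignored. Annotated snoRNAs lie within 7 members (Ncl, Nop56, Nop58, Dkc1, Wdr43, Gnl3 and Ppan). Their mature forms lack a poly(A) tail. Those with an entry had at most 59 counts in a library (Snord11, Dox replicate 12), which are not read as levels of the mature forms.

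Further genes of ribosome biogenesis, from the same steps, were counted in the same way. From a list of 130 names, 127 matched and 126 were tested: 61 were lower, 2 higher and 63 did not pass (median log2 fold change -0.77; 22.1% of all tested genes were lower). By role, 8 of 12 genes of RNA polymerase I, 5 of 10 of snoRNP assembly, 16 of 44 of the small subunit, 22 of 46 of the large subunit and 10 of 14 of the RNA exosome and its helpers were lower. Per count of these genes the members had 1.13, 1.10 and 1.13 counts without Dox, and 0.765, 0.753 and 0.866 in the Dox libraries. The largest falls were in Exosc3, a subunit of the exosome that trims rRNA (39.4, 45.2 and 35.6 CPM without Dox; 8.17, 0.926 and 1.32 CPM with Dox), in Trmt112, a partner of rRNA methyltransferases (115, 105 and 114 CPM; then 12.8, 13.9 and 12.1 CPM), and in Brix1, a large-subunit factor (65.1, 65.9 and 60.01 CPM; then 8.57, 5.25 and 12.9 CPM). Their log2 fold changes were -3.55, -3.10 and -2.84, and none of these ranges overlapped. With the length trend removed they were -2.58, -2.05 and -2.71, so that Brix1 had the largest fall of the 3. Exosc3 moved to -5.18 when Dox replicate 10 was left out. All 3 kept their calls in each alternative fit that tested them.

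The genes higher with Dox were Ttf1 and Rrp8. Ttf1, the termination factor of RNA polymerase I, had 52.7, 64.9 and 41.7 CPM without Dox and 90.5, 126 and 84.1 CPM with Dox (log2 fold change 0.92 ± 0.23 (SE), adjusted p = 0.00915). Rrp8, an rRNA methyltransferase, had 27.5, 24.5 and 33.9 CPM without Dox and 47.2, 48.7 and 64.3 CPM with Dox (log2 fold change 0.90 ± 0.23 (SE), adjusted p = 0.00968). In both, every Dox library was above every library without Dox. Each call was lost in 2 of 16 alternatives: both genes missed the threshold without replicate 4 (adjusted p = 0.0553 for Ttf1 and 0.0544 for Rrp8), Ttf1 also without replicate 6 (0.0725) and Rrp8 also without replicate 5 (0.0744), all of the group without Dox.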

How the data were processed

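Messenger RNA of 6 mouse spleen libraries was counted at transcript ends with QuantSeq forward libraries, per the labels' protocols. The authors deposited a table of raw counts, with 1 column per library and genes given by Entrez ID. STAR, featureCounts and GRCm38 are named in the submitters' processing notes; versions, annotation, strand setting and treatment of shared reads are not given in the sources used here. All columns were matched by title and 0 were left over.

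From the counts, low genes were removed by filterByExpr (at least 10 in the required libraries, total at least 15), scaled by TMM and tested with edgeR 4.0.16 (quasi-likelihood F-test, R 4.3.3) on all 6 libraries without covariates; p-values were adjusted by Benjamini-Hochberg over 14110 genes, threshold 0.05. Standard errors were derived as the log2 fold change divided by the root of F. Symbols come from RefSeq GRCm38.p6, lengths and neighbours from GENCODE for GRCm38. The fit was first tested on simulated data. It called 54.7% of 192 genes with a simulated log2 fold change of 2, and 7 of 13319 unchanged genes. That simulation held far fewer changed genes than passed here, so this share is not the power in these data. A gene that did not pass was not shown to be unchanged.

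The members and lists were chosen with earlier results of these data known. Library values are printed for the 2 most abundant members of each role and the 2 with the largest change, and for further genes the 3 largest changes in each direction among those that passed (only 2 passed as higher); other members named with library values were chosen after their values were seen. Alternatives were RLE, upper-quartile and library-size scaling, 2 other filters, DESeq2 1.42.0, limma-voom (limma 3.58.1) with and without group weights, a fit without mitochondrial, haemoglobin, T cell receptor and immunoglobulin genes, a threshold of 0.01, leaving out each library, and, added after the data were seen, removal of a length trend.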

Additional observations from a re-analysis of the deposited data

How the results depend on the processing

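The number of members lower with Dox stayed within 1.5 times its value in all 17 alternatives. Of the 33 lower members, 27 kept direction and call at a threshold of 0.05 in each fit that tested them; Nop56, Noc4l, Rrp9, Bop1, Wdr74 and Ppan did not. The threshold of 0.01, the one alternative that is not another fit, ended 4 calls (Nop56, Noc4l, Bop1 and Ppan). Leaving out 1 library gave 29 to 38 lower members, 0 to 1 higher, a median of -1.40 to -1.16, 48 to 67 further genes lower, 0 to 4 higher, and 2459 to 3629 of all genes lower and 2284 to 3396 higher. The 0 higher members became 1 with upper-quartile scaling, with at least 10 counts in every library and with limma-voom group weights, 4 with library size only and 2 with the length trend removed; the further genes higher became 5, 5, 4, 9 and 7 in that order. The members' median was -0.97 with library size only, -1.42 without the low-count filter, -1.11 when 10 counts were required in each library and -0.88 with the length trend removed. At a threshold of 0.01 the count of all genes higher with Dox was 2200. Values near 0 changed sign: Heatr1 to 0.034 with library size only (but -0.79, with a call as lower, once the length trend was removed), Polr1a to -0.32 and Noc3l to -0.054 with the length trend removed, and Noc3l to -0.10 without the filter, -0.12 and -0.09 when replicate 6 or 11 was left out (-0.12 to 0.12 over all libraries left out). The cause was not tested, except that library size only moved all genes upward. No paired analysis was possible because replicate numbers 4 to 6 and 10 to 12 have none in common. Polr1b, Emg1 and Bop1 had fewer than 10 counts in some library, so their changes are the least precise.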
